A study of Mus musculus with 6 samples.

Results

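The genes described are 10 that encode Cas family scaffolds, focal adhesion kinases and the adaptors they work with: Cass4, Nedd9, Bcar1, Ptk2, Ptk2b, Pxn, Crk, Crkl, Tln1 and Vcl. They were chosen from knowledge of the pathway, because Cass4 had the clearest fall in a comparison of the same 6 libraries, so their differences between the groups are given below as a description that supports nothing by itself. All 10 are among the 25663 genes of the count table, and 9 had enough counts to be among the 13468 genes tested. Bcar1 did not.

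RNA was sequenced from C57BL/6 mouse neutrophils that had been sorted from bone marrow by the surface markers CD45, CD11b and Ly6G. The LPS group (n = 3) was kept for 6 hours with lipopolysaccharide (LPS), a bacterial cell wall component that activates neutrophils. The LPS+resveratrol group (n = 3) also had LPS for 6 hours, together with the plant polyphenol resveratrol (25 μmol, a unit given without a volume). Both groups thus carry LPS, and no sample without it was analysed here. Nothing in the labels ties the samples to separate mice, so the p-values rest on sample-to-sample variation that may be purely technical. Duplicates are mentioned in the series text, although each label is carried by 3 samples. Its title places the question in hepatic ischemia-reperfusion, with ERK as the pathway.

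Cas proteins are scaffolds without enzyme activity that sit behind integrins, the receptors by which cells hold on to surfaces and to each other. When an integrin binds, focal adhesion kinases and Src family kinases phosphorylate tyrosines of the Cas protein, and the adaptors CRK and CRKL dock there and bring in exchange factors that switch on the small GTPases RAC and RAP. Talin activates integrins and ties them to actin, vinculin strengthens that link, and paxillin is a further adaptor on which the kinases meet. Neutrophils depend on integrins to leave blood vessels, and they use the kinase PYK2 (gene Ptk2b) where many adherent cells use FAK (gene Ptk2).

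Each library held between 18141352 and 19928153 counts. LPS+resveratrol replicate 1 stood apart: its log2 levels correlated across genes with those of the other 5 libraries at Pearson's r between 0.952 and 0.962, while the highest r of each other library was at least 0.989. The log2 fold changes of the members and of the 2 most abundant or called genes of each pathway list are therefore given with and without it, a decision made with the data known. Transcripts of mature neutrophils were abundant in all libraries, with a sum over 8 markers of 38788 to 41645 CPM (counts scaled to a common library total) in the LPS group and 44199 and 44256 CPM in LPS+resveratrol replicates 2 and 3, against 21465 CPM in LPS+resveratrol replicate 1. The lower sum lay in S100a8 (2579 CPM in that library, 11425 and 11211 CPM in the other 2 of its group) and S100a9 (8125 against 23348 and 22959 CPM), the genes of the calprotectin subunits. Of the same 8 markers, Cxcr2, Mmp8, Mmp9 and Csf3r were highest of all 6 libraries in LPS+resveratrol replicate 1, so the sum does not stand for the markers as a whole. In bulk RNA, fewer cells of a type and less RNA per cell cannot be told apart.

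Cass4, a member of the Cas family, was lower with resveratrol in every library. Its level, in CPM on library totals scaled by TMM, was 30.3, 33.4 and 30.3 with LPS alone and 8.26, 8.63 and 8.41 with LPS+resveratrol, from 557 to 619 and 151 to 165 reads. The groups lay far apart, with a coefficient of variation of 5.68% in LPS and 2.23% in LPS+resveratrol. At 151 to 165 reads the expected counting error alone is larger than the latter value, so this small spread does not measure precision. Cass4 fell from 31.3 ± 1.78 to 8.44 ± 0.188 CPM (SD, n = 3 each), that is to 0.269 of the LPS level. The log2 fold change was −1.89 ± 0.112 (SE). It was −1.89 ± 0.101 without LPS+resveratrol replicate 1, whose Cass4 level was only 0.04 lower (difference −0.04) on the log2 scale than the mean of the other 2 libraries of its group. Among the 13468 tested genes, 20 had a more negative log2 fold change and 0 a smaller edgeR p. These ranks are what chose the gene and support nothing further.

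Reads of Cass4 could include some of an overlapping gene. In GENCODE M21 (build GRCm38) Cass4 lies on the plus strand at chr2:172393794-172433757, and the antisense gene Gm14455 covers 21.2% of its exon bases. The use of strand in counting is not given in the sources used here, so reads in the shared bases cannot be assigned. Gm14455 itself had between 5 and 33 counts in any library, while Cass4 itself had 557, 619 and 578 reads in LPS and 151, 160 and 165 in LPS+resveratrol.

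Nedd9, a second Cas scaffold that lymphocytes and other blood cells use in migration, was the more abundant one. It was at 336.7, 324.4 and 298.5 CPM in LPS and at 416.7, 274.0 and 279.6 CPM in LPS+resveratrol. The highest and the lowest of the 6 values were both in the LPS+resveratrol group, so the groups overlapped. The log2 fold change was 0.02 ± 0.176 over 6 libraries and −0.22 ± 0.0556 without LPS+resveratrol replicate 1, where Nedd9 was 0.59 above its group on the log2 scale.

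Bcar1, the widely expressed founding member of the family, and Efs, the remaining Cas gene, were close to undetected. Bcar1 had 25 reads over all 6 libraries, with 2, 2 and 9 in LPS and 5, 4 and 3 in LPS+resveratrol, so no difference was detectable at this depth. Efs had 1 read in all, in LPS+resveratrol replicate 2, and its count of 0 in each of the other 5 libraries allows a level of up to 0.164 CPM in any of them (3 counts, counting error only).

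Levels of different genes can be set side by side only per length of transcript. Per kilobase of the median protein-coding transcript, the LPS samples held Nedd9 at 69.1 ± 4.21, Cass4 at 9.94 ± 0.565 and Bcar1 at 0.0733 ± 0.067 CPM per kb (SD, n = 3). Of the summed per-length level of the 4 Cas genes, Cass4 made up 12.6% ± 0.784 in LPS (SD, n = 3; range 11.7% to 13.1%). In LPS+resveratrol its share was 3.82% ± 0.869, with 2.83% in replicate 1 and 4.42% and 4.23% in replicates 2 and 3. Nedd9 made up 87.3% ± 0.825 and 96.1% ± 0.882. These shares use the chosen contrast and are descriptive.

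The 250 bases before the RefSeq start of Cass4 are shown because its difference is the one the other genes are set against. They also hold CGGAAGT, a core that ETS factors bind. Whether this core has a part in the Cass4 difference was not tested. The sequence is from RefSeq (GRCm38.p6, chr2:172393394-172393643, plus strand, 5′ to 3′), and capitals mark the core.
Cass4: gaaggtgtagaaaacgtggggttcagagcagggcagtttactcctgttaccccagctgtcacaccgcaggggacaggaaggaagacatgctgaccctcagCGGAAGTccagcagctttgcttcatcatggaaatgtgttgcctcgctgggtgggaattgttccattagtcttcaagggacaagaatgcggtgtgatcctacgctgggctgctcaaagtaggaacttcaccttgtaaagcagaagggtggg

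RefSeq's table held a promoter for 7 of the 10 members, without Ptk2, Ptk2b and Pxn. CGGAAGT, on either strand, was in the windows of Cass4 and Tln1 and in 4.92% of all 32851 promoters of the same length. Of the other motifs searched on both strands, TGACGTCA (CRE, in 1.55% of promoters) matched Crkl alone among the members, while TGANTCA (AP-1, 6.75%), GCGNGGGCG (EGR, 4.70%), TGACNNNGC (NRF2 element, 10.2%) and TTCNNNGAA (STAT, 7.02%) matched none of the 7. The Cass4 window held 6 CpG dinucleotides, the median over all promoters, and the windows of the other 6 members held 12 (Tln1) to 24 (Vcl). A match is a run of letters and not a shown binding site, and no match says nothing about the factor. GENCODE M21 starts Cass4 downstream of the RefSeq start and Nedd9 has a further start upstream, so other promoters may be in use.

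**Figure D1:**
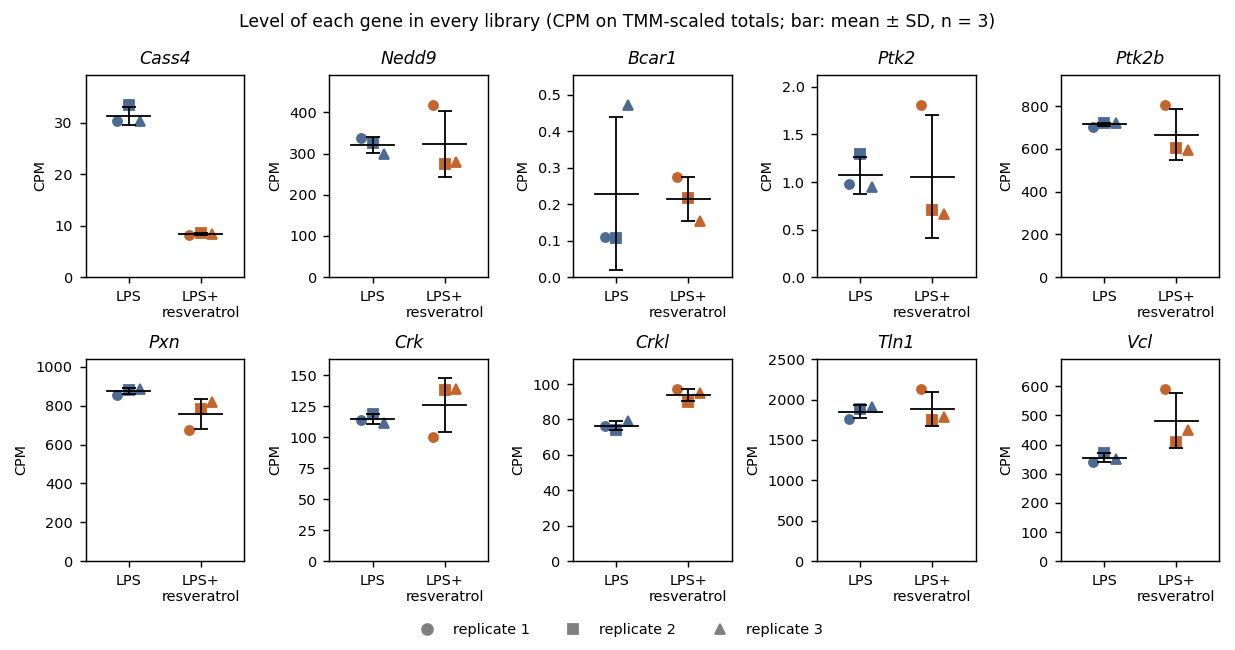
Level of each of the 10 genes in every library, in CPM on a linear axis from 0, with the mean and SD of 3 samples per group and a marker shape for each replicate number. The Cass4 groups lie apart, at 30.3 to 33.4 and 8.26 to 8.63 CPM. LPS+resveratrol replicate 1 (circles) is the highest of its group for Nedd9, Bcar1 (5 reads against 4 and 3), Ptk2, Ptk2b, Crkl, Tln1 and Vcl. It is the lowest for Pxn, Crk and Cass4.

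Of the focal adhesion kinases, Ptk2b, which encodes PYK2, was abundant and Ptk2, which encodes FAK, was at the edge of detection. Ptk2b was at 703.5, 718.9 and 718.8 CPM in LPS and at 802.9, 602.4 and 593.8 CPM in LPS+resveratrol. Replicate 1 of the LPS+resveratrol group lay above all LPS samples and the other 2 lay below them. The log2 fold change was −0.10 ± 0.137, and −0.26 ± 0.0507 without that library. Ptk2 had 18, 24 and 18 reads in LPS and 33, 13 and 13 in LPS+resveratrol. The highest count was again in LPS+resveratrol replicate 1, and the log2 fold change was −0.03 ± 0.441, or −0.66 ± 0.408 without it. Per kilobase, Ptk2 was 1.15% ± 0.198 of the summed level of the 2 kinases in LPS and 1.16% ± 0.484 in LPS+resveratrol (SD, n = 3 each), and 0.129% and 0.13% when the longest transcript of each gene gave the length.

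Pxn encodes paxillin, the adaptor on which focal adhesion kinases and vinculin meet. It was at 856.0, 880.9 and 883.1 CPM in LPS and at 672.7, 784.8 and 819.0 CPM in LPS+resveratrol. All LPS+resveratrol values lay below all LPS values. The log2 fold change was −0.20 ± 0.107 and −0.13 ± 0.0498 without LPS+resveratrol replicate 1, the lowest library. With offsets for transcript length and GC content over 6 libraries it was 0.06, that is of the other sign.

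The CRK adaptors, which dock on phosphorylated Cas proteins and on paxillin, had positive log2 fold changes. Crkl was at 76.1, 74.3 and 79.1 CPM in LPS and at 96.9, 90.0 and 94.8 CPM in LPS+resveratrol. The groups did not overlap, and LPS+resveratrol replicate 1 lay with the rest of its group. The log2 fold change of Crkl was 0.30 ± 0.0947, and 0.26 ± 0.0591 without that library. Crk was at 114.1, 118.8 and 111.3 CPM in LPS and at 100.4, 138.1 and 138.5 CPM in LPS+resveratrol. For Crk, LPS+resveratrol replicate 1 was the lowest of all 6 libraries and the other 2 of its group were the highest. Its log2 fold change was 0.13 ± 0.144, and 0.26 ± 0.0519 without that library.

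Tln1, which encodes talin and had the highest CPM of the 10, and Vcl, which encodes vinculin, are the links from integrins to actin. Tln1 was at 1757, 1877 and 1911 CPM in LPS and at 2124, 1745 and 1779 CPM in LPS+resveratrol. The groups overlapped, and the log2 fold change of 0.03 ± 0.112 became −0.08 ± 0.0469 without LPS+resveratrol replicate 1. With offsets for transcript length and GC content over 6 libraries it was 0.42 for Tln1, 0.56 for Crkl and 0.29 for Crk. These offsets use the median transcript length, 0.836 kb for Tln1, 0.78 kb for Crkl and 0.965 kb for Crk. The longest transcripts have 8.39, 5.04 and 4.29 kb. Vcl was at 340.2, 370.5 and 351.9 CPM in LPS and at 588.7, 410.2 and 448.1 CPM in LPS+resveratrol. All LPS+resveratrol values of Vcl were above all LPS values, with the highest in replicate 1. The log2 fold change of Vcl was 0.45 ± 0.148, and 0.27 ± 0.0557 without that library. Vcl shares 25.5% of its exon bases with Ap3m1 on the opposite strand, which had 797 to 1002 counts in a library, while the overlaps of Nedd9 with Gm32401 and of Tln1 with Creb3 covered 0.972% and 3.67% of exon bases.

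**Figure D2:**
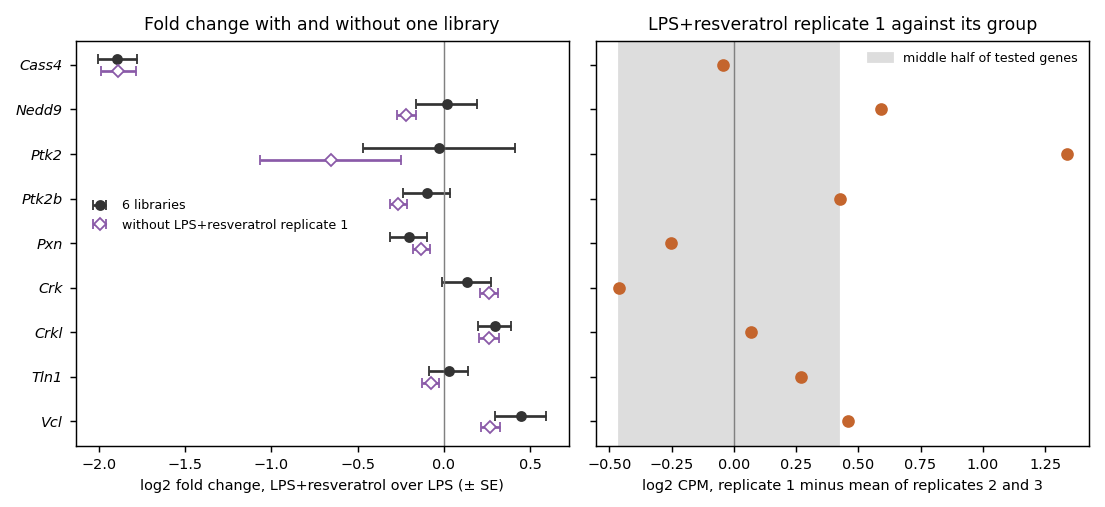
Left, log2 fold change of LPS+resveratrol over LPS with its SE for the 9 tested genes, over 6 libraries (filled) and without LPS+resveratrol replicate 1 (open). Right, log2 CPM of LPS+resveratrol replicate 1 minus the mean of replicates 2 and 3, with the range between the quartiles of all tested genes shaded. Cass4 keeps −1.89 in both fits, while Nedd9 goes from 0.02 to −0.22 and Ptk2 from −0.03 to −0.66, the 2 genes with the largest positive deviation in that library.

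Of the 9 tested members, 1 (Cass4) passed an edgeR adjusted p under 0.05 over 6 libraries, against 1.83% of all tested genes (1.17% lower and 0.668% higher). With LPS+resveratrol replicate 1 left out, 7 of the 9 passed, with Cass4, Nedd9, Ptk2b and Pxn lower and Crk, Crkl and Vcl higher, against 25.4% of all tested genes (13.3% lower and 12.1% higher). Groups did not overlap over 6 libraries for Cass4 and Pxn, which were lower, and Crkl and Vcl, which were higher, that is 4 of 9, against 33.3% of all tested genes (49.9% without LPS+resveratrol replicate 1). The Pxn call was lost with length and GC offsets in the same 5 libraries, where its log2 fold change was −0.0638. Since the contrast was used to choose the genes, nothing is read from these counts. The median log2 fold change of the 9 was 0.02 over 6 libraries and −0.13 without that library, against −0.00 and −0.01 over all tested genes. Apart from Cass4, the members' log2 fold changes lay between −0.20 and 0.45 over 6 libraries.

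The call on Cass4 rests on all 6 libraries or on the 5 without LPS+resveratrol replicate 1. When any of the other 5 libraries was left out, its log2 fold change stayed between −1.87 and −1.92 and edgeR called 0 genes of the whole table, with 1564 to 2721 genes at an unadjusted p under 0.05. With the same samples left out, no gene passed in limma-voom (0 calls). DESeq2 called 1 member each time, lower, among 95 to 322 genes called higher and 138 to 362 called lower of all 13468 tested genes.

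LPS+resveratrol replicate 1 differed from its group by 0.59 for Nedd9, 1.34 for Ptk2, 0.42 for Ptk2b, 0.46 for Vcl and 0.27 for Tln1, and by −0.46 for Crk and −0.25 for Pxn, on the log2 scale. The quartiles of this difference over all tested genes were −0.46 and 0.42. Cass4 (−0.04) and Crkl (0.07) were the members nearest to 0. The part of this library in the other members' differences is given by the paired values above.

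By level per kilobase of the median protein-coding transcript, the order in LPS was Tln1 (2211 CPM per kb), Pxn (457.8), Ptk2b (184.8), Vcl (124.0), Crk (118.9), Crkl (98.1), Nedd9 (69.1), Cass4 (9.94), Ptk2 (2.15) and Bcar1 (0.0733). The 3 LPS samples of Vcl and Crk overlapped, and all other neighbours in this order were separate. The median transcript of Tln1 in the annotation is 0.836 kb, against 8.39 kb for its longest, since many annotated transcripts are partial, and Ptk2, Crk and Crkl are affected likewise. Per kilobase of the longest transcript, Pxn (232.2 CPM per kb) and Tln1 (220.2) led with overlapping samples, followed by Ptk2b (176.9), Vcl (67.3) and Nedd9 (65.7), which overlapped, then Crk (26.8), Crkl (15.2), Cass4 (8.4), Ptk2 (0.229) and Bcar1 (0.073). Cass4 stood in place 8 of 10 by both lengths.

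**Figure D3:**
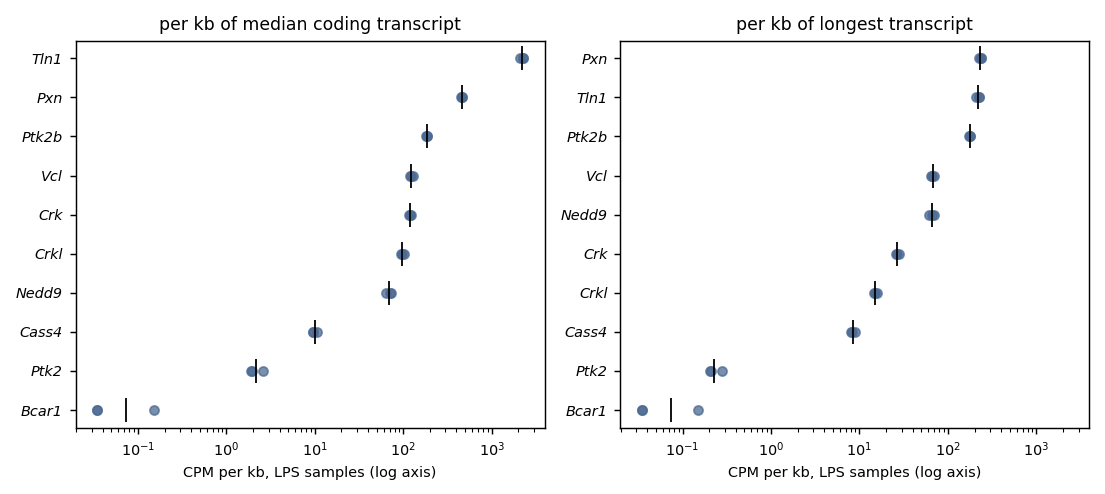
Level in the 3 LPS samples (points) and their mean (bar) in CPM per kb on a log axis, by the median protein-coding transcript (left) and by the longest transcript (right). Tln1 moves from 2211 to 220.2 CPM per kb between the lengths, while Cass4 (9.94 and 8.4) and Ptk2b (184.8 and 176.9) hardly move.

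The genes with which these proteins work were counted in 7 lists, which together hold 114 tested genes. Over 6 libraries 1 of the 114 passed (0 higher and 1 lower), a share of 0.877% against 1.83% of all tested genes. With LPS+resveratrol replicate 1 left out, 40 passed (12 higher and 28 lower), a share of 35.1% against 25.4%, so the share lay below the background in 1 fit and above it in the other. The gene called over 6 libraries was Parvg, the blood cell form of parvin, an actin-binding partner of the integrin-linked kinase. Parvg was at 294.0, 293.2 and 294.2 CPM in LPS and at 185.8, 199.8 and 191.2 CPM in LPS+resveratrol. The groups did not overlap, and LPS+resveratrol replicate 1 lay close to the rest of its group. Parvg fell by 0.61 on the log2 scale (SE 0.0897, adjusted p = 0.0284 by edgeR), and by 0.60 without that library (adjusted p = 1.50e-11 by edgeR). Like all calls over 6 libraries, this one was lost with edgeR when any of the other 5 libraries was left out. For the single lists below, the background without LPS+resveratrol replicate 1 is the same 25.4%. The background of DESeq2 over 6 libraries is 394 genes higher and 451 lower of all 13468 tested genes. Counts at an unadjusted p are given without a background, and nothing is read from them.

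Among the talin and integrin activators Parvg was the 1 call of 13 tested genes over 6 libraries. In the fit without LPS+resveratrol replicate 1, 0 were higher and 2 lower, Parvg and the RAP effector Rassf5 (log2 fold change −0.21, edgeR adjusted p = 0.00119). The median log2 fold change of the list was −0.02 over 6 libraries and −0.11 without that library.

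Of 10 tested Cas partners, 0 passed with edgeR over 6 libraries (3 at an unadjusted p under 0.05), 0 with limma-voom and 3 with DESeq2, all lower (Mical1, Aurka and Id2). Sh2d3c, an exchange factor-like protein that binds Cas proteins, was at 554.3 ± 27.2 and 624.7 ± 66.6 CPM, and Ptpn12, a phosphatase of Cas proteins, at 199.8 ± 9.02 and 245.2 ± 73.7 CPM (± is the SD here and in the lists below, n = 3 each, edgeR adjusted p of 0.424 and 0.44). For Ptpn12 the log2 fold change was 0.30 over 6 libraries and 0.01 without LPS+resveratrol replicate 1, and that of Sh2d3c over 6 libraries was 0.17. Once LPS+resveratrol replicate 1 was left out, Sh2d3c was higher (log2 fold change 0.24, edgeR adjusted p = 0.000587) and Id2, Mical1, Smad3 and Aurka were lower, that is 5 of 10 against 25.4% of tested genes. The mitotic kinase Aurka, which NEDD9 is known to bind, had the largest fall of these, of 1.29 on the log2 scale (edgeR adjusted p = 1.09e-11). Over 6 libraries the log2 fold change of Aurka was −0.94 (SE 0.241, edgeR adjusted p = 0.103). Aurka was named after its values were seen.

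Of 17 tested Src family kinases and their regulators, 0 passed with edgeR over 6 libraries (6 at an unadjusted p under 0.05), 0 with limma-voom and 2 with DESeq2 (Yes1 higher and Csk lower). Ptprc, the phosphatase CD45, was at 1985 ± 66.3 and 2653 ± 527.5 CPM, and the kinase Syk at 1357 ± 23.3 and 1515 ± 162.7 CPM (n = 3 each, edgeR adjusted p of 0.193 and 0.44). Without LPS+resveratrol replicate 1, 4 were higher and 5 lower, and Ptprc was among the higher (log2 fold change 0.42 over 6 libraries and 0.23 over 5, the latter with an edgeR adjusted p of 0.000135). Syk had a log2 fold change of 0.16 and 0.06 in these fits. Csk, the kinase that holds Src family kinases inactive, was among the latter (log2 fold change −0.49, edgeR adjusted p = 6.66e-10), a gene named after its values were seen.

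Of 23 tested Crk effectors, RAC and RAP GTPases, 0 passed with edgeR over 6 libraries (5 at an unadjusted p under 0.05), 0 with limma-voom and 1 with DESeq2 (Vav1, lower). Rac2, the RAC form of blood cells, was at 2237 ± 80.8 and 1962 ± 276.0 CPM, and Rap1b at 1108 ± 35.3 and 1201 ± 118.2 CPM (n = 3 each, edgeR adjusted p of 0.429 and 0.563). Their log2 fold changes were −0.19 and 0.12 over 6 libraries, and −0.09 and 0.02 over the 5. With LPS+resveratrol replicate 1 left out, 2 were higher and 6 lower, among the latter Rapgef1, the RAP exchange factor that CRK recruits (log2 fold change −0.31, edgeR adjusted p = 5.64e-05; named after its values were seen).

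Of 15 tested genes of the paxillin family and its partners, 0 passed with edgeR over 6 libraries (2 at an unadjusted p under 0.05) and 0 with limma-voom and DESeq2. The GTPase gene Cdc42 was at 972.8 ± 30.5 and 884.6 ± 15.9 CPM and the kinase gene Pak2 at 454.4 ± 10.7 and 490.5 ± 61.4 CPM (n = 3 each, edgeR adjusted p of 0.419 and 0.616). Cdc42 had a log2 fold change of −0.14, and for Pak2 it was 0.11 over 6 libraries and −0.0056 over the 5. In the fit without LPS+resveratrol replicate 1, 2 were higher and 4 lower, Cdc42 among the lower (log2 fold change −0.16, edgeR adjusted p = 0.0163).

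Of 20 tested vinculin partners and actin linkers, 0 passed with edgeR over 6 libraries (4 at an unadjusted p under 0.05), 0 with limma-voom and 1 with DESeq2 (Vim, lower). Flna, which encodes the actin crosslinker filamin A, was at 3433 ± 79.6 and 3790 ± 118.8 CPM (n = 3 each, edgeR adjusted p of 0.396), with a log2 fold change of 0.14 over 6 libraries and 0.11 over the 5. Vasp, which encodes an actin polymerase that binds zyxin and vinculin, was at 2093 ± 98.3 and 1636 ± 879.7 CPM (edgeR adjusted p = 0.652). The spread was that of 1 library, with 626.2 CPM in LPS+resveratrol replicate 1 and 2047 and 2235 CPM in replicates 2 and 3. Without it the log2 fold change of Vasp went from −0.35 to 0.02. Once LPS+resveratrol replicate 1 was left out, 2 were higher and 4 lower.

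Of 16 tested integrin subunits, 0 passed with edgeR over 6 libraries (3 at an unadjusted p under 0.05) and 0 with limma-voom and DESeq2. Itgal, the alpha chain of LFA-1, was at 2422 ± 37.3 and 3054 ± 228.1 CPM, and Itgb2, the beta chain shared by the leukocyte integrins, at 2118 ± 4.4 and 2164 ± 169.7 CPM (n = 3 each, edgeR adjusted p of 0.132 and 0.879). Their log2 fold changes over 6 libraries were 0.33 and 0.03, and that of Itgb2 over the 5 was −0.04. Without LPS+resveratrol replicate 1, Itgal was higher (log2 fold change 0.26, edgeR adjusted p = 9.19e-06), and Itga5, Itgax and Itga2b were lower.

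**Figure D4:**
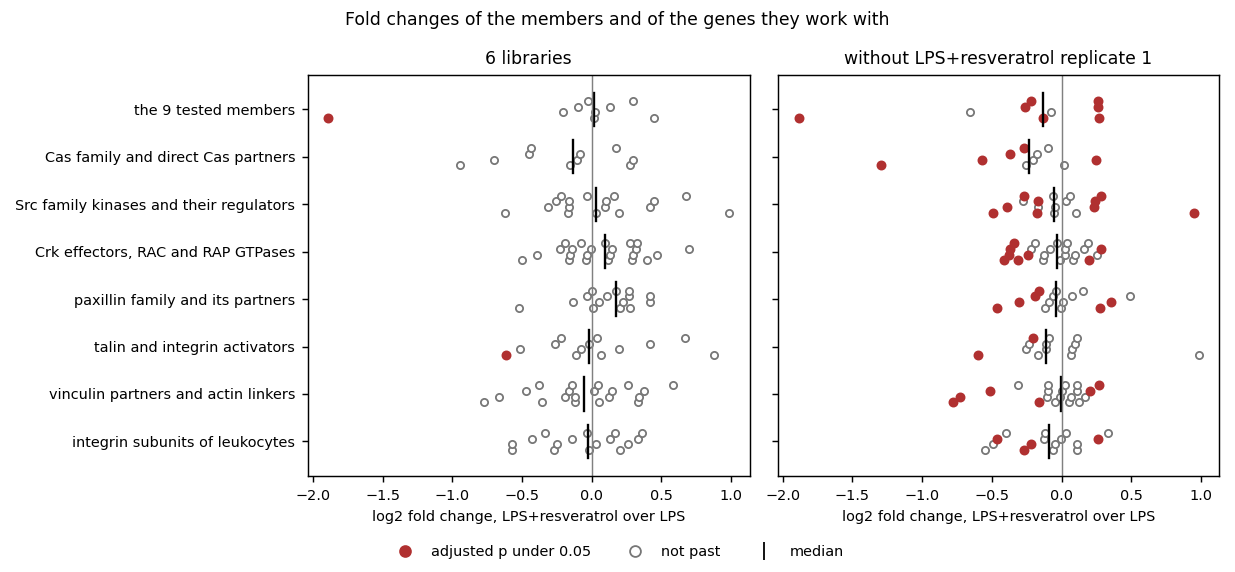
Log2 fold change of LPS+resveratrol over LPS for the 9 tested members and for the genes of 7 lists, over 6 libraries (left) and without LPS+resveratrol replicate 1 (right). Filled points passed an edgeR adjusted p under 0.05 and bars are medians. Over 6 libraries Cass4 (−1.89) and Parvg (−0.61) are the filled points, and without that library 40 points of the 7 lists are filled (35.1%), 12 higher and 28 lower.

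Over the 6 libraries, the 5 genes most like Cass4 by Pearson's r of log2 CPM, of 6495 named genes at or above the median level, were Car2 (r = 0.9998), Gpr35 (0.998), Tbrg1 (0.996), Lgals3bp (0.996) and Parvg (0.995). With 2 groups of 3 libraries, such an r mostly restates that a gene is lower in all LPS+resveratrol libraries and steady within groups. The carbonic anhydrase gene Car2 went from 23.1 ± 0.45 to 13.6 ± 0.126 CPM and the G protein-coupled receptor gene Gpr35 from 53.4 ± 3.9 to 19.99 ± 1.06 CPM (SD, n = 3 each). The log2 fold changes with and without LPS+resveratrol replicate 1 were −0.76 and −0.77 for Car2 and −1.42 and −1.38 for Gpr35. Among the members, r with Cass4 was 0.774 for Pxn, 0.357 for Ptk2b, 0.163 for Ptk2, 0.0118 for Nedd9, −0.122 for Tln1, −0.324 for Crk, −0.803 for Vcl and −0.972 for Crkl, over the same 6 libraries.

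Markers of other cells that a bone marrow sort could hold were measured as well, and 6 of the lists had all LPS+resveratrol sums below all LPS sums. No background was computed for such sums. The summed level of 8 eosinophil, basophil and mast cell markers was 117.2 to 122.4 CPM in LPS and 69.0 to 104.7 CPM in LPS+resveratrol, and that of 8 platelet and megakaryocyte markers 30.1 to 30.8 and 18.7 to 26.5 CPM. For 6 dendritic cell markers it was 165.4 to 180.5 and 75.5 to 142.5 CPM, for 6 B cell markers 157.1 to 167.5 and 111.9 to 146.3 CPM, for 7 T and NK cell markers 10.9 to 12.96 and 7.77 to 9.23 CPM, and for 8 markers of red blood cell precursors 169.7 to 177.6 and 77.5 to 164.7 CPM. The 8 monocyte and macrophage markers summed to 2621 to 2667 and 2530 to 2776 CPM, the 8 markers of immature neutrophils to 29640 to 32248 and 31099 to 37199 CPM, and 7 markers of stroma and endothelium to 57.8 to 63.1 and 48.9 to 80.6 CPM. Single markers were less uniform than the 6 lower sums. Over all 13468 tested genes, 15.9% were lower in every LPS+resveratrol library than in any LPS library, and 17.3% were higher. Some markers had too few counts to be among these genes. The counts of single markers below stand beside these shares, and nothing is read from them. Of 8 eosinophil, basophil and mast cell markers, 4 were lower in every LPS+resveratrol library than in any LPS library. So were 2 of 8 platelet and megakaryocyte, 2 of 6 B cell and 3 of 7 T and NK cell markers. This also held for 2 of 6 dendritic cell markers (Xcr1 and Bst2), while Cd209a was higher. Among red blood cell precursor markers it held for 2 of 8, Klf1 and Tfrc. The monocyte and immature neutrophil sums also hide unlike members. Of the 8 monocyte and macrophage markers, Csf1r, Ly6c2, Ccr2, Cx3cr1 and Cd68 were lower in every LPS+resveratrol library than in any LPS library (Cd68 at 83.3 to 85.8 CPM in LPS and 41.9 to 46.2 CPM in LPS+resveratrol), while Adgre1 was higher (1007 to 1070.3 and 1288 to 1454 CPM). Of the 8 immature neutrophil markers, Mpo, Elane, Prtn3, Ctsg and Chil3 were lower in the same sense (Mpo at 87.1 to 100.7 and 58.9 to 62.1 CPM), and Ltf and Ngp, which carry most of the sum, were higher. In each list, 0 markers were at 0 in all libraries. LPS+resveratrol replicate 1 had the lowest sum of its group in every list but that of stroma and endothelium, where it had the highest. Cass4 was at 8.26 CPM in that library and at 8.63 and 8.41 CPM in the other 2 of its group. The part of other cells in the Cass4 difference was not tested.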

How the data were processed

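The values the authors deposited are raw counts, 1 whole number for each Ensembl gene ID in each sample. The submitters' processing notes name Bowtie 0.12.2 and mm8. What counted the reads, with which annotation and strand setting, is not given in the sources used here. Of 25663 IDs, 25595 matched a symbol. Low genes were removed with filterByExpr at a minimum count of 10 (kept were at least 99.8% of each library's counts). After TMM scaling, groups were compared two-sided in edgeR 4.0.16 under R 4.3.3 (quasi-likelihood, robust), with Benjamini-Hochberg adjustment over 13468 genes and a threshold of 0.05. The script was checked on simulated counts. CPM uses TMM-scaled totals, and SEs come from the F statistic. Lengths and GC content are from GENCODE M21 transcripts; coordinates are that annotation's or RefSeq's, not the files'. Alternatives were DESeq2 1.42.0, limma-voom (limma 3.58.1) with and without quality weights, other scalings and filters, length and GC offsets, a replicate block and leaving out each sample.

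The members and lists were chosen with earlier results of these data known. Named are the members, Efs, up to 3 called genes per list or else its 2 most abundant, the 5 genes most like Cass4, and genes overlapping a member's exons. Genes named beyond this (Id2, Mical1, Smad3, Aurka, Rassf5, Yes1, Vav1, Vim, Csk, Rapgef1, Itga5, Itgax and Itga2b) were chosen after their values were seen. Within groups, no 2 libraries were identical, and chi-square over degrees of freedom reached 3.29 or more for each pair, so all 6 were counted separately.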

Additional observations from a re-analysis of the deposited data

How the results depend on the processing

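Cass4 had a negative log2 fold change in all 18 alternatives, from −1.93 to −1.85. It did not pass with the replicate block (log2 fold change −1.89) or with edgeR without any 1 of the 5 libraries other than LPS+resveratrol replicate 1 (leaving out 1 library in turn gave −1.92 to −1.87). The cause was not tested. Deviations from the group means of same-numbered libraries correlated at 0.0135, −0.0218 and −0.00017. These values cannot show whether the replicate numbers pair the samples, because LPS+resveratrol replicate 1 dominates the deviations in its group. Chi-square over degrees of freedom was 117 and 119.9 for its pairs with replicates 2 and 3, against 3.29 for replicates 2 and 3. With the block, 0 genes were called, 0 of them members or list genes (2287 at an unadjusted p under 0.05).

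Genes called over the whole table numbered 90 higher and 157 lower. They were 394 and 451 with DESeq2, 1508 and 1559 with quality weights, 153 and 239 without a filter, and 237 and 281 with length and GC offsets. With the stricter filter of 50 counts in 3 samples they were 128 and 180. Leaving out 1 library gave 0 to 1634 higher and 0 to 1786 lower. Without LPS+resveratrol replicate 1 they were 1234 and 1325 with DESeq2, 1633 and 1745 with limma-voom, and 1815 and 1566 with length and GC offsets. Members called were 0 higher and 1 lower over 6 libraries. Quality weights gave 3 and 3, leaving out 1 library 0 to 3 and 0 to 4, and without LPS+resveratrol replicate 1 DESeq2 and limma-voom gave 3 and 4 and the offsets 3 and 3. List genes called were 0 higher and 1 lower. They were 1 and 7 with DESeq2, 11 and 24 with quality weights, 1 and 5 without a filter, 0 and 4 with offsets, and 0 to 12 and 0 to 28 when 1 library was left out. Without LPS+resveratrol replicate 1 they were 11 and 25 with DESeq2, 13 and 28 with limma-voom, and 16 and 24 with offsets.

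Nedd9 (0.02 over 6 libraries) changed sign in 12 alternatives: −0.0223 with unscaled totals, −0.0104 with limma-voom, −0.19 with quality weights, −0.0063 without a filter, −0.0101 with the replicate block, −0.17 with offsets, −0.22 to 0.12 when 1 library was left out, and without LPS+resveratrol replicate 1 −0.21 with DESeq2, −0.215 with limma-voom and −0.23 with offsets. Ptk2 turned positive with offsets (0.13) and when LPS replicate 2 (0.10) or LPS+resveratrol replicate 2 or 3 (0.19) was left out, with a range of −0.66 to 0.19. Pxn was at 0.0592 with offsets, and at −0.0638 with offsets without LPS+resveratrol replicate 1, where its call was lost. Offsets over 6 libraries moved Tln1 from 0.03 to 0.42, Crkl from 0.30 to 0.56 and Crk from 0.13 to 0.29. For these genes the offsets use a median transcript length far below that of the longest transcript. Tln1 turned negative with unscaled totals (−0.0104) and quality weights (−0.0613), when LPS replicate 1 or LPS+resveratrol replicate 1 was left out (range −0.0776 to 0.0786 over the 6 libraries), and without the latter with DESeq2 (−0.0717), limma-voom (−0.0770) and offsets (−0.0169). The causes were not tested. Depth limits Bcar1, Efs and Ptk2, with 25, 1 and 119 reads in all, and Ptk2 has no value under the filter of 50 counts.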
